A study of Homo sapiens with 4 samples.

Results

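The 35 genes described here encode the enzymes and transporters of glycolysis and the best known genes of the cellular response to low oxygen. They were chosen by gene name on the array, which for pyruvate kinase was PKM2, among 21921 genes that could be tested and 27193 gene names in all. By role they were 2 glucose transporters, 15 glycolytic enzymes, 2 bifunctional regulators of phosphofructokinase, 4 genes of pyruvate and lactate handling, 1 subunit of the hypoxia-inducible factor (HIF), 2 oxygen sensors and 9 HIF targets outside glycolysis. All 35 passed the filter on dim probes. Their 44 probes lay on 89 of the 43118 spots other than controls, and no member spot was saturated.

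RNA came from MCF10A.B2 cells, a human mammary epithelial line with a basal character that carries a chimeric ErbB2 (Her2) receptor which the crosslinker AP1510 activates. The control group was 2 arrays of cells that the labels call wild type for PAK1, and the PAK1 shRNA group was 2 arrays of the same line with a tetracycline-inducible short hairpin RNA against PAK1, a kinase downstream of the small GTPases Rac and Cdc42. Cells of both groups were starved of serum for 3 h and then received AP1510 for 15 min, and no sample was labelled as hypoxic. The methods name wild type cells of the line beside the hairpin cells, and no control hairpin is named for the arrays. Nor do the methods say which cells received the tetracycline inducer. Effects of hairpin expression, of the inducer and of PAK1 loss therefore cannot be told apart. The labels name 1 line and do not say whether the replicates were separate cultures, whereas the series design speaks of tumor-derived cells, so the p-values measure only the spread between these arrays.

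Glycolysis splits glucose to pyruvate in the cytosol. Pyruvate is then either reduced to lactate, which leaves the cell, or taken into mitochondria and oxidized. When oxygen is scarce the HIF alpha subunits escape prolyl hydroxylation, pair with ARNT and bind DNA at the hypoxia response element. HIF targets include most glycolytic enzymes together with genes for vessel growth, pH control and mitophagy. In mammary epithelium, as in other tissues, HIF1A is controlled mainly at the level of its protein, which these arrays do not measure.

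The core of the hypoxia response element is ACGTG or GCGTG. The 250 bases upstream of the annotated start are shown for 6 members, with each core match on either strand in capitals: for the 3 HIF targets outside glycolysis with the largest increases among those in the RefSeq promoter table (ADM, BNIP3 and P4HA1), for the 2 enzymes with the largest decreases (ALDOC and ENO1), and for PGK1, an enzyme long studied as a HIF target. The sequences are from RefSeq (GRCh38.p14), written 5′ to 3′ in the direction of the gene. ADM lies at chr11:10304823-10305072 on the plus strand, BNIP3 at chr10:131981924-131982173 on the minus strand, and P4HA1 at chr10:73096867-73097116 on the minus strand. ALDOC lies at chr17:28576896-28577145 and ENO1 at chr1:8878687-8878936, both on the minus strand, and PGK1 at chrX:78103998-78104247 on the plus strand.
ADM: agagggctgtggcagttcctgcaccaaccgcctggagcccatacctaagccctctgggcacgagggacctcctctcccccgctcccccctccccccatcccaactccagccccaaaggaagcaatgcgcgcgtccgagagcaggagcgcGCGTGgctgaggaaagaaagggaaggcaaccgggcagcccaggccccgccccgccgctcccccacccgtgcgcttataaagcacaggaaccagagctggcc
BNIP3: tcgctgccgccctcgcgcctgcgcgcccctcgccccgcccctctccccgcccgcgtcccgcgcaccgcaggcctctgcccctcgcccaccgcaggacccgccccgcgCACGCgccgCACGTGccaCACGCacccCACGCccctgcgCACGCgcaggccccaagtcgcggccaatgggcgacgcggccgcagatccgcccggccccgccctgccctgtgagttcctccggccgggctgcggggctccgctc
P4HA1: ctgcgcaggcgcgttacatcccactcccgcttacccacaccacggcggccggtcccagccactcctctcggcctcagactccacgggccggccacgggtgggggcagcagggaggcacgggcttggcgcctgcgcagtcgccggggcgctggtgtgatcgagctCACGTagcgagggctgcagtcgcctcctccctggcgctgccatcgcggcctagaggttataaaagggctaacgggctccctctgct
ALDOC: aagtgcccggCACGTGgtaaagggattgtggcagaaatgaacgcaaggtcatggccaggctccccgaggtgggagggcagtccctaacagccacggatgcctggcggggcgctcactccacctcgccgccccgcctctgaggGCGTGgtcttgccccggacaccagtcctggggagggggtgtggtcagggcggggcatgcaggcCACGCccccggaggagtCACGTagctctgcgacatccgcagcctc
ENO1: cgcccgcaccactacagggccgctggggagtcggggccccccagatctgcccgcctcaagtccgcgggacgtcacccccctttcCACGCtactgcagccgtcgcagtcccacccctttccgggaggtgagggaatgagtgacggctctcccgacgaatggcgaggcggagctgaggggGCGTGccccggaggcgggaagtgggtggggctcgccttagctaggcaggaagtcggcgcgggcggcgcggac
PGK1: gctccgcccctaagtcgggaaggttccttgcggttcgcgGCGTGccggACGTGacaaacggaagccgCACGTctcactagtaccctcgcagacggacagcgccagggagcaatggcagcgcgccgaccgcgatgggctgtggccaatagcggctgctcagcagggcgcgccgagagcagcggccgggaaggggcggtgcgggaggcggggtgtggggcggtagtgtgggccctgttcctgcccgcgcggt

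Both kinds of gene held the core letters. The BNIP3 window had 6 matches, the ALDOC window 5, the PGK1 window 3, the ENO1 window 2, and the ADM and P4HA1 windows 1 each. In BNIP3 and in ALDOC, 2 of the matches were the overlapping strands of a single CACGTG. Of the 35 members 32 had at least 1 window, and 27 of these held a match upstream of at least 1 start. Among the enzymes 13 of 15 held a match, as did all 7 of the HIF targets outside glycolysis with a window. A match was present in 43.2% of all 35116 windows of this length (18.5% held ACGTG, 32.2% GCGTG and 6.34% CACGTG) and in 47.4% of 27305 genes with a window, where genes with several starts had several chances. Both cores hold a CG, and the windows of all genes were not matched to those of the members in base composition. The shares are therefore no test of enrichment. A match describes letters and not binding, and no factor was measured at these sites.

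The labels were first checked on PAK1 itself. Its normalized log2 signal was 11.19 and 11.27 in the control pair and 10.44 and 10.51 in the PAK1 shRNA pair. PAK1 thus fell by 0.76 on the log2 scale (standard error 0.08, adjusted p = 0.00018), to 59.2% of the control level. This is the value of its brightest probe, and 14.2% of all genes tested fell further. Here and below, log2 fold changes are PAK1 shRNA minus control, and adjusted p-values are from limma with Benjamini-Hochberg adjustment over all 21921 genes. A gene was called at an adjusted p under 0.05. The 8 basal epithelial markers examined were well above background on every array where they were not flagged (KRT5, KRT14, KRT17, TP63, CDH3, LAMB3, ITGB4 and EGFR), with 5 lower and 2 higher. The log2 of the summed signal of the 7 basal markers measured on every array was 18.67 and 18.51 in control and 18.30 and 18.27 in PAK1 shRNA cells. Of the general epithelial markers CDH1 was higher (log2 fold change 0.95) and EPCAM was not called. Among markers of other cells, the leukocyte gene CD14 (1.23) and the luminal gene FOXA1 (1.48) were higher and the endothelial gene PECAM1 was lower (-1.56), while ESR1, CDH5, HBB and ALAS2 were not called. The CD14 value rests on the first PAK1 shRNA array, since its spot on the second was flagged. The other leukocyte markers examined, PTPRC and CD3E, were not called and summed to 8.38 and 8.46 in control and 8.55 on both PAK1 shRNA arrays on that scale. The part of these shifts in the results was not tested.

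Glycolytic enzymes and HIF targets outside glycolysis did not move together. Among the 35 members, 11 were called higher, 14 lower and 10 not at all in PAK1 shRNA cells. Across all genes tested 30.6% were called higher and 32.0% lower, so a call alone was common on these arrays. Of the 15 glycolytic enzymes, 1 was higher (HK2), 8 were lower and 6 were not called, with a median log2 fold change of -0.21. Of the 9 HIF targets outside glycolysis, 6 were higher, 2 were lower and 1 was not called, with a median of 0.77. With the 2 oxygen sensors counted among them, 6 of 11 were higher, 3 lower and 2 not called, with a median of 0.47. The median over all genes was 0.02. On the single PAK1 shRNA arrays the median difference of the enzymes from the control mean was -0.22 and -0.19. That of the 9 HIF targets was 0.70 and 0.84.

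At least a 2-fold change was reached by 6 members that were higher and 3 that were lower, against 8.80% and 9.10% of all genes. The 6 were ADM, SLC2A3, BNIP3, PFKFB4, VEGFA and P4HA1, and the 3 were SLC2A1, ALDOC and ENO1. Both PAK1 shRNA arrays, or the single one measured, lay on one side of both control arrays in 32 of the 35 members, against 82.1% of all genes. The exceptions were HK1, PFKM and PFKFB3. For any 1 gene, the smallest p that an exact permutation test (two-sided) of 2 arrays against 2 allows is 0.333, so the calls rest on the spread that limma shares across genes.

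**Figure D1:**
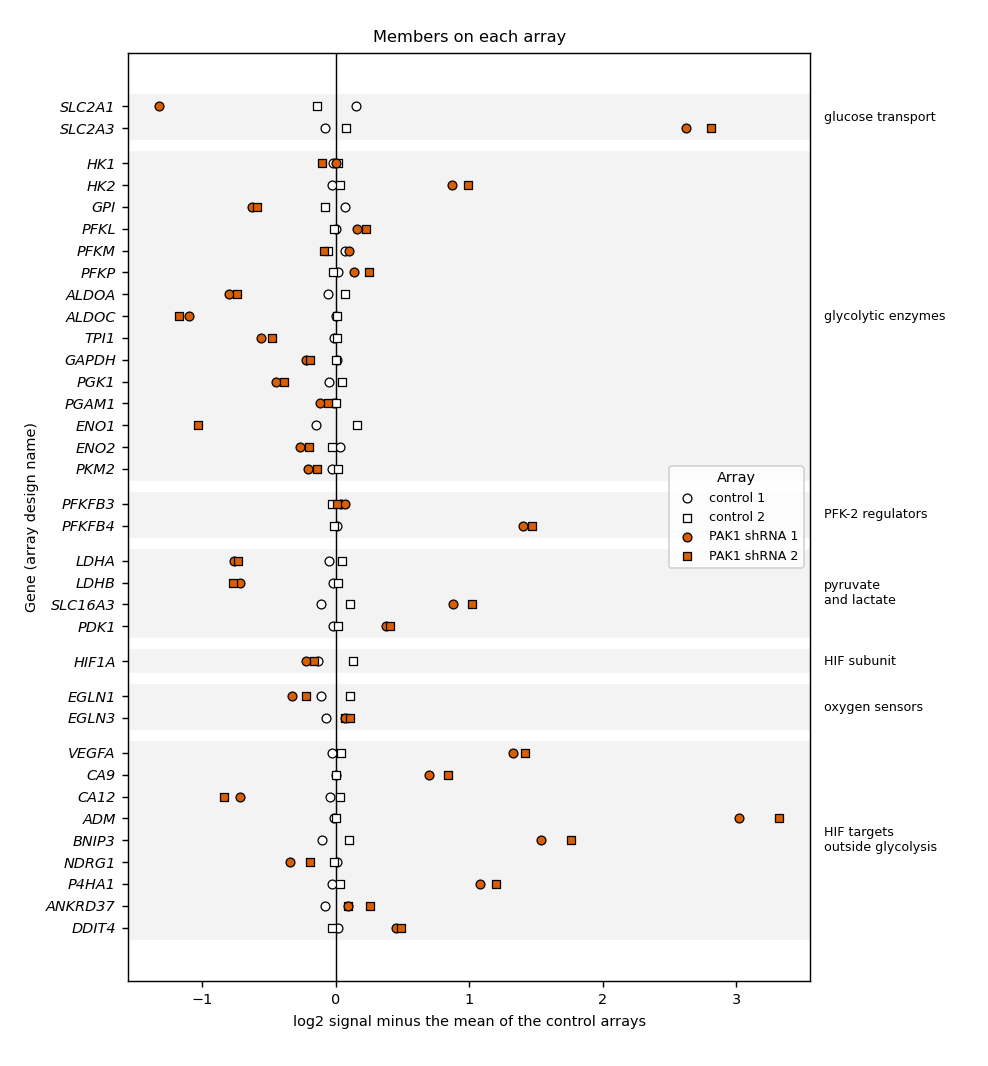
Each member on each array, as its normalized log2 signal minus the mean of the control arrays (x axis), with genes grouped by role (y axis). White symbols are the 2 control arrays and filled symbols the 2 PAK1 shRNA arrays. ADM and SLC2A3 lie farthest to the right, at log2 fold changes of 3.17 and 2.71, and SLC2A1 and ENO1 have 1 PAK1 shRNA symbol each because the other spot was flagged.

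The glucose transporters went in opposite directions. SLC2A1 encodes GLUT1, the widespread basal transporter and a HIF target. It read 15.88 and 15.59 in control and 14.41 on the first PAK1 shRNA array, while the spot on the second was flagged for its local background and dropped. SLC2A1 fell by 1.33 (standard error 0.14, adjusted p = 5e-04), or 2.51-fold, and the fit used 3 arrays. With the flagged spot kept, a setting chosen after seeing the data, the log2 fold change was -1.29. SLC2A3 encodes GLUT3, a transporter of high affinity that is also a HIF target. Its signal was 6.82 and 6.98 in control and 9.52 and 9.71 in PAK1 shRNA cells, a rise of 2.71 (standard error 0.10, adjusted p = 2.7e-06). The size of the SLC2A3 change was less certain than its call, since the probe was dim in control cells: it was 1.75 with normexp fitted on all spots and 3.81 with the processed signal, and a second, dimmer SLC2A3 probe rose by 1.23.

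At the top of the pathway, hexokinase and phosphofructokinase were higher or not called, while GPI, which acts between them, was lower (-0.61). HK2, the inducible hexokinase, was the only enzyme called higher, from 12.36 and 12.42 in control to 13.26 and 13.38 in PAK1 shRNA cells. HK2 thus rose by 0.93 (standard error 0.08, adjusted p = 8.7e-05), or 1.90-fold. The mean over both HK2 probes gave 0.51, the second probe being near background. HK1, the constitutive hexokinase, read 12.67 and 12.71 against 12.69 and 12.59 and the groups overlapped (log2 fold change -0.05, 95% interval -0.23 to 0.13). The 3 phosphofructokinase genes were not called. Their log2 fold changes were 0.20 for the liver form PFKL (adjusted p = 0.054), 0.00 for the muscle form PFKM and 0.19 for the platelet form PFKP (adjusted p = 0.068). PFKL was called higher under 5 of 19 other settings and PFKP under 7. The second PFKP probe was called, at 0.39 (adjusted p = 0.004 from limma in a fit over all probes).

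Below phosphofructokinase the called enzymes were all lower. The 2 aldolases, which split fructose bisphosphate, both fell. ALDOC read 11.03 and 11.04 in control and 9.93 and 9.86 in PAK1 shRNA cells (log2 fold change -1.14, standard error 0.07, adjusted p = 2.4e-05), and ALDOA 16.87 and 17.00 against 16.13 and 16.19 (-0.78, standard error 0.08, adjusted p = 0.00022). Control and PAK1 shRNA arrays were far apart in both. GPI, the isomerase that acts just after hexokinase, was lower as well, at 16.02 and 15.87 against 15.32 and 15.36, a change of -0.61. Triose phosphate isomerase, TPI1, went from 16.28 and 16.30 to 15.73 and 15.81, a change of -0.52. ENO1, the main enolase, read 15.96 and 16.27 in control and 15.08 on the second PAK1 shRNA array, with the first flagged for its background. ENO1 fell by 1.04 (standard error 0.15, adjusted p = 0.0017, 3 arrays), and by 1.01 with the flagged spot kept.

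The smaller decreases were less firm. PGK1, which makes the first ATP of the pathway, read 15.93 and 16.03 against 15.53 and 15.59 (log2 fold change -0.42, adjusted p = 0.0032). Under cyclic loess normalization it was -0.17 (adjusted p = 0.097). GAPDH, which precedes PGK1 and is often used as a reference gene, read 17.63 and 17.62 against 17.40 and 17.43. Its change of -0.21 (adjusted p = 0.037) lost its call under 10 of 19 other settings and was -0.02 under cyclic loess. ENO2, the neuronal enolase, was dim, at 6.96 and 6.90 against 6.66 and 6.73 (-0.23, adjusted p = 0.035), and lost its call under 7 of 19 and changed sign under median centring. PGAM1, phosphoglycerate mutase, and pyruvate kinase were not called, at -0.08 and -0.17 (adjusted p = 0.36 and 0.09). Whether the probe named PKM2 separates the splice forms of PKM was not checked. GAPDH, ENO1, LDHA and other glycolytic genes have close copies in the genome, whose signal cannot be told apart from theirs here.

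The counts of the enzymes moved with the processing. Under cyclic loess normalization 3 enzymes were higher and 6 lower, with a median of -0.02, and under the processed signal scaled to the 75th percentile, which changes both the signal and the scaling, 3 were higher and 5 lower, with a median of -0.14. With normexp fitted on all spots 3 were higher and 8 lower. Over all members the first 2 of these settings gave 13 higher and 10 lower, and 13 higher and 9 lower, where the main fit gave 11 and 14. The enzymes were among the brightest genes: 8 of the 15 had a mean log2 signal of 15 or above, and 6 of these 8 were lower. Of all 910 genes at that level 47.6% were lower and 28.7% higher, with a median of -0.16, against -0.47 for the 8 enzymes. The part of signal level in the enzyme counts was not tested further. ALDOA, ALDOC, GPI, TPI1 and ENO1 stayed lower and called under every setting in which they were tested, cyclic loess included (-0.54, -1.12, -0.35, -0.32 and -0.78).

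**Figure D2:**
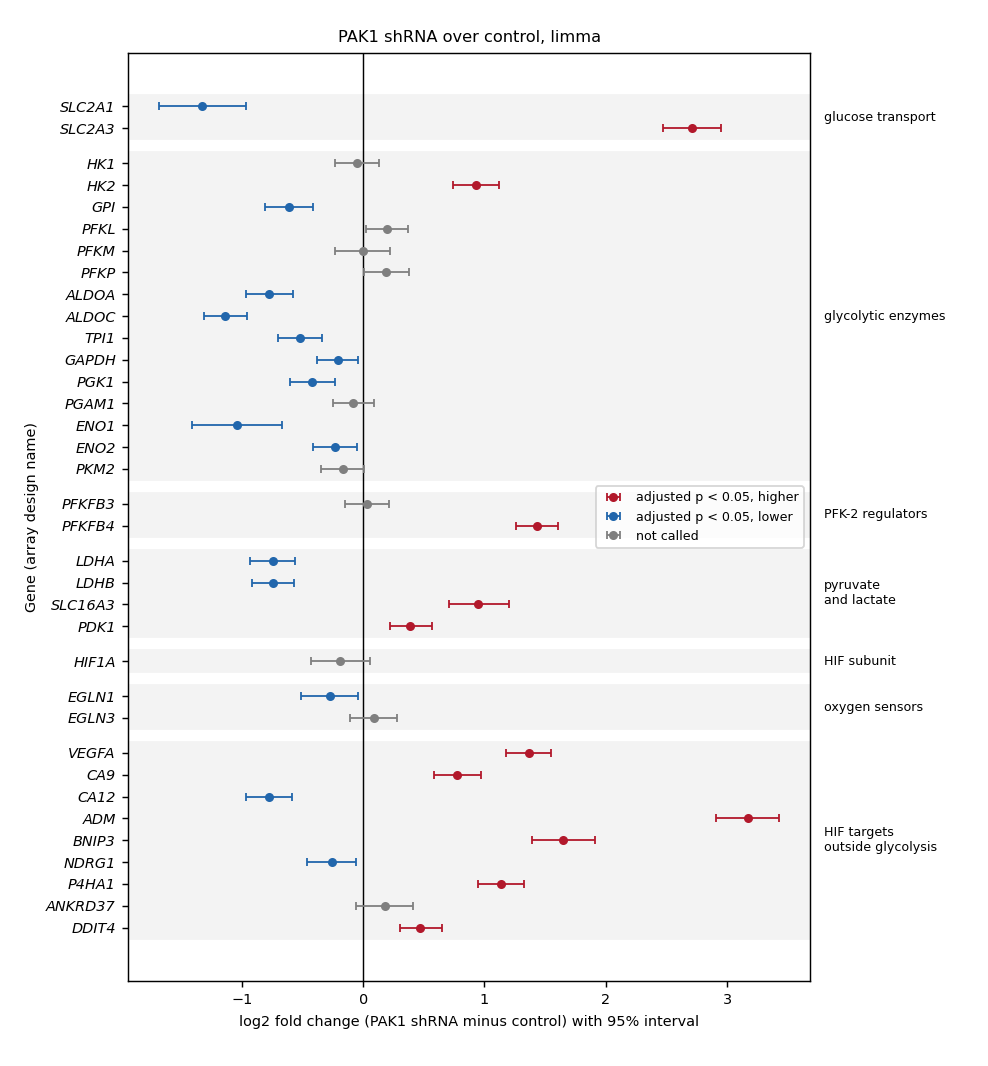
Log2 fold change (PAK1 shRNA minus control) of each member with its 95% interval from limma (x axis), with genes grouped by role (y axis). Colour marks members called higher, lower or not called. HK2 at 0.93 is the only enzyme called higher, and CA12 and NDRG1 are the HIF targets called lower, at -0.78 and -0.26.

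The regulators and the fate of pyruvate were mixed. PFKFB4, a HIF target that sets the level of the phosphofructokinase activator fructose 2,6-bisphosphate, rose from 10.77 and 10.75 to 12.16 and 12.23 (log2 fold change 1.43, standard error 0.07, adjusted p = 9.8e-06), or 2.70-fold. Its relative PFKFB3 read 11.33 and 11.26 against 11.36 and 11.30, and the groups overlapped. Both lactate dehydrogenase subunits fell, LDHA from 17.07 and 17.17 to 16.36 and 16.39 and LDHB from 17.57 and 17.61 to 16.87 and 16.82. Each had a log2 fold change of -0.74 (standard errors 0.08 and 0.07, adjusted p = 0.00019 and 0.00015). A second LDHB probe fell by 0.86. A second probe named LDHA (-0.99) is placed by the array on chromosome 9 at 14921817 to 14921876 (hg19), away from LDHA. It was left out of the main fit and entered only the mean over probes, which gave -0.86 for LDHA, the low end of its range over the settings.

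SLC16A3 and PDK1 rose where the dehydrogenases fell. SLC16A3, the lactate exporter MCT4, read 16.86 and 17.08 in control and 17.85 and 17.99 in PAK1 shRNA cells, a rise of 0.95 (standard error 0.10, adjusted p = 0.00021). PDK1, the kinase that shuts off pyruvate dehydrogenase and a HIF target, went from 12.20 and 12.24 to 12.60 and 12.63, a rise of 0.39 (adjusted p = 0.0028). In both genes the PAK1 shRNA arrays lay above both control arrays, though the groups did not overlap in 82.1% of all genes, counting either direction. Fewer cells with a transcript and less transcript per cell cannot be told apart in RNA of whole cultures, for these and all other members.

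The HIF subunit and the oxygen sensors changed little. HIF1A read 12.36 and 12.62 in control and 12.27 and 12.33 in PAK1 shRNA cells (log2 fold change -0.19, 95% interval -0.43 to 0.06, adjusted p = 0.15). Without the first control array it was -0.32 (adjusted p = 0.024 from limma), and without the second it was -0.06 (adjusted p = 0.61 from limma). The second HIF1A probe went the other way, from 10.62 and 10.64 to 10.83 and 10.99 (0.28, adjusted p = 0.029 in a fit over all probes), so the HIF1A transcript has no settled direction here. EGLN1, the prolyl hydroxylase PHD2 that marks HIF alpha for destruction, read 12.05 and 12.27 against 11.83 and 11.94 (-0.27, adjusted p = 0.047) and lost its call under 9 of 19 other settings. EGLN3, the hypoxia-inducible hydroxylase PHD3, was dim and not called, at 7.22 and 7.36 against 7.36 and 7.40.

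Among the HIF targets outside glycolysis, ADM had the largest increase, and in the main fit the largest of all members, while with the processed signal SLC2A3 (3.81) exceeded ADM (3.27). ADM encodes adrenomedullin, a vasodilator peptide. Its signal was 12.99 and 13.00 in control and 16.02 and 16.32 in PAK1 shRNA cells, a log2 fold change of 3.17 (standard error 0.11, adjusted p = 2.2e-06), or 8.99-fold. BNIP3, a mitophagy receptor, rose from 12.16 and 12.36 to 13.80 and 14.02 (1.65, standard error 0.11, adjusted p = 2.6e-05). VEGFA, the vascular growth factor, rose from 12.41 and 12.48 to 13.77 and 13.86 (1.37, standard error 0.08, adjusted p = 1.4e-05), and its second probe by 1.65. P4HA1, a collagen prolyl hydroxylase subunit, rose from 11.71 and 11.77 to 12.82 and 12.94 (1.14, standard error 0.08, adjusted p = 3.7e-05). In these 4 genes the gap between groups was many times the gap between replicates.

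The remaining HIF targets ranged from a moderate rise to a fall. CA9, carbonic anhydrase IX, read 11.09 on both control arrays and 11.79 and 11.93 in PAK1 shRNA cells (log2 fold change 0.77, adjusted p = 2e-04). DDIT4, an inhibitor of mTORC1 signalling, went from 15.56 and 15.51 to 15.99 and 16.03 (0.47, adjusted p = 0.0013). CA12, carbonic anhydrase XII, fell from 12.30 and 12.37 to 11.62 and 11.50 (-0.78, adjusted p = 2e-04), opposite to CA9. NDRG1, a stress-responsive gene, read 14.43 and 14.41 against 14.08 and 14.23 (-0.26, adjusted p = 0.03) and lost its call under 7 of 19 other settings, among them cyclic loess (-0.09). ANKRD37 read 9.88 and 10.05 against 10.05 and 10.22 and was not called (0.18, adjusted p = 0.16).

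**Figure D3:**
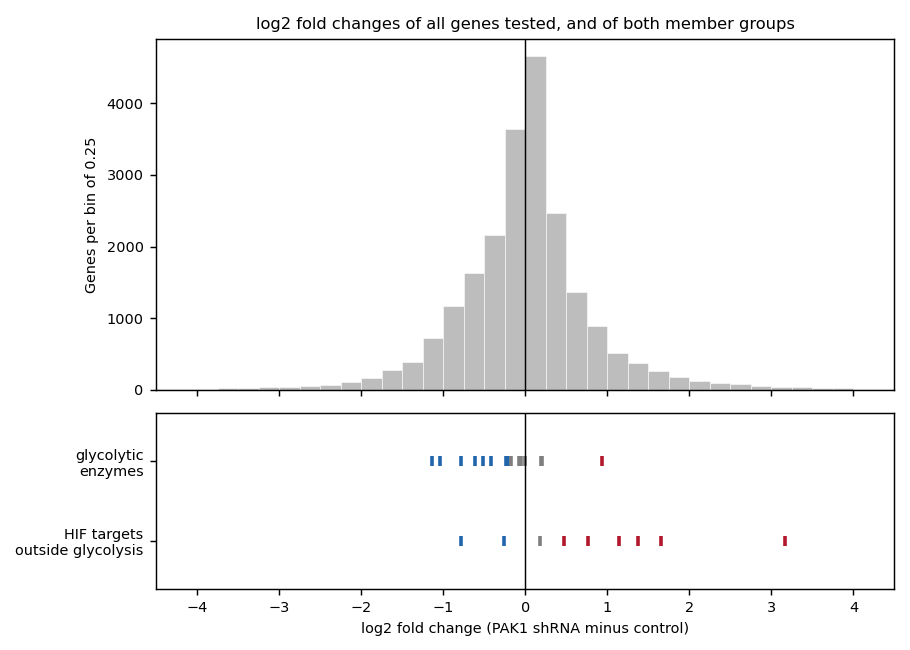
Upper panel, the number of genes (y axis) in bins of log2 fold change (x axis) over all 21921 genes, of which 99 lie beyond the plotted range. Lower panel, a tick for each of the 15 glycolytic enzymes and the 9 HIF targets outside glycolysis, red where called higher, blue where called lower and grey where not called, with medians of -0.21 and 0.77.

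Of 41 other hypoxia genes, 25 were higher, 8 were lower and 8 were not called, against 30.6% of all genes higher and 32.0% lower. Their median log2 fold change was 0.54, against 0.02 over all genes. At least 2-fold changes were found in 11 that were higher and 0 that were lower, against 8.80% and 9.10% of all genes. Their range ran from MIF, a cytokine gene, at -0.90 (18.47 and 18.72 in control, 17.67 and 17.74 in PAK1 shRNA cells) to CITED2, a transcriptional co-regulator that competes with HIF for its co-activator, at 2.54 (10.20 and 10.30 against 12.62 and 12.97). The list was drawn up with earlier results of these data known, and it was described and not tested as a set.

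Of 7 other genes that control HIF, 2 were lower, 1 was higher and 4 were not called, against 32.0% of all genes lower and 30.6% higher. EPAS1, which encodes HIF2 alpha, fell from 14.17 and 14.28 to 13.45 and 13.46 (log2 fold change -0.77, standard error 0.08, adjusted p = 0.00017). ARNT, the common partner, fell by 0.30 (adjusted p = 0.021), and EGLN2, the hydroxylase PHD1, rose by 0.22 (adjusted p = 0.048). Those not called were HIF3A at 0.16, ARNT2 at -0.02, the asparaginyl hydroxylase HIF1AN at 0.02, and VHL, which targets hydroxylated HIF alpha for degradation, at 0.34 with control arrays 15.77 and 15.26.

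Of 12 genes that pass pyruvate into mitochondria or control this step, 7 were lower, 2 were higher and 3 were not called, against 32.0% of all genes lower and 30.6% higher. Their median log2 fold change was -0.68, against 0.02 over all genes. Both subunits of the mitochondrial pyruvate carrier fell, MPC1 from 12.35 and 12.41 to 10.91 and 10.87 (-1.49) and MPC2 from 13.97 and 14.08 to 12.60 and 12.55 (-1.45). Of the pyruvate dehydrogenase complex, DLAT (-1.26), PDHA1 (-0.95), PDHB (-0.86) and DLD (-0.49) were lower, and PDHX (-0.13) was not called. The kinases of the complex differed. PDK2 fell by 1.29, PDK4 was higher at 0.66 with control arrays 8.85 and 9.38, and PDK3 was not called (-0.07). Of the phosphatases that reverse them, PDP1 rose by 1.22 and PDP2 was not called (-0.28).

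**Figure D4:**
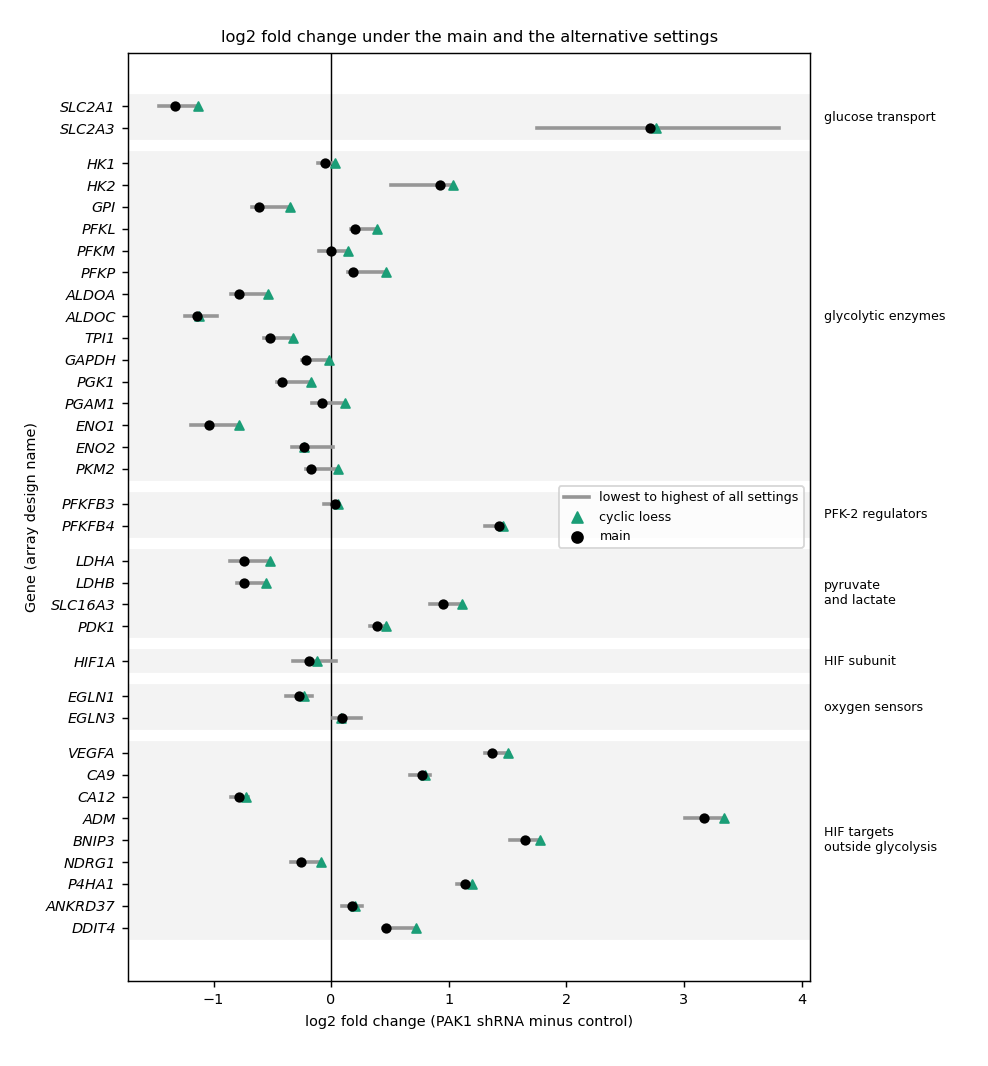
Log2 fold change of each member (x axis) in the main fit (circles) and under cyclic loess normalization (triangles), with a line from the lowest to the highest value over all settings tried, and genes grouped by role (y axis). GAPDH moves from -0.21 to -0.02 under cyclic loess, while ADM stays between 3.01 and 3.34 and ALDOC between -1.24 and -0.97.

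Across the 19 other settings in which a member could be fitted, 22 of the 35 members kept both their direction and their call. Direction alone was kept by 28, and the 7 that changed sign in at least 1 setting were HK1, PFKM, PGAM1, ENO2, PKM2, PFKFB3 and HIF1A. ENO2 was the only one of these 7 that the main fit called. All 11 members called higher kept their call and direction under each of the 19 in which they were tested.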

How the data were processed

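The 4 RNA samples, 2 per group by their labels, were each hybridized in 1 colour to an Agilent array, all on 1 slide, so no slide block was fitted. The authors deposited the mean, median and processed intensity of each spot from Agilent Feature Extraction (9.5.3.1 in the headers), not normalized between arrays. They also deposited processed log2 values of unstated scale and centring (column medians 9.40 to 9.42, r with the values used here 0.9995 to 0.9996), taken here as an alternative. Probe coordinates are hg19 per the file headers. Names follow the array's design, and newer symbols (PKM for PKM2) came from RefSeq.

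Mean intensity minus local background was corrected with normexp (offset 50), as the methods name. Its parameters were fitted without spots of flagged background, because the fit on all spots gave a mean of -666 and -740 on the control arrays against -10.7 and -10.2 on the PAK1 shRNA arrays. The offset compresses the changes of dim genes. Flagged and control spots were dropped, values were quantile normalized on the log2 scale, and spots of a probe were averaged. A probe was kept if well above background on both arrays of either group (78.0% to 82.0% of 34127 probes were so on an array), and each gene took its brightest probe. All genes were tested with limma 3.58.1 (R 4.3.3), with Benjamini-Hochberg adjusted p-values, a threshold of 0.05 and no replicate block, after a test on simulated data. The number of arrays limits the precision.

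All 35 members, every gene that controls HIF or passes pyruvate into mitochondria, both ends of the other lists, PAK1 and cell type markers were named. The members and lists were chosen with earlier results of these data known. Alternatives covered background correction, offset, signal, normalization, filter, probe rule, saturated and flagged spots, test, fold, replicate block, the authors' values and leaving out each array. Mouse arrays were not analysed here. Some cell type markers are not reported here.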

Additional observations from a re-analysis of the deposited data

How the results depend on the processing

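Of 655 log2 fold changes of single members under 19 alternatives, 590 kept their direction and call, 35 lost the call, 14 gained one and 16 changed sign. None of the 16 was called under the alternative, and ENO2 alone had been called in the main fit. The members called numbered 11 higher and 14 lower in the main fit. Requiring a 2-fold change left 6 and 3. The processed signal and the unpaired t-test each gave 9 lower. That t-test, which the methods name for the study in general and not for the arrays, called 11 higher and 9 lower of 33 members after adjustment and 12 and 10 before it, and 41.6% of all genes after adjustment, against 62.6% in the main fit. Leaving out 1 array gave 11 higher each time and 9 to 12 lower, the 9 without the first PAK1 shRNA array. With the replicate number as a replicate block, 11 were higher and 11 lower of 33 members. Same-numbered arrays did not deviate together (r = 0.00766 across 26301 probes). With 2 arrays per group this cannot show whether same-numbered samples were handled together, which the labels do not say.

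The median of the enzymes, -0.21, was -0.02 under cyclic loess, -0.12 in the authors' table, -0.14 with the processed signal and under median centring, -0.17 with normexp on all spots and with flagged spots kept (chosen after seeing the data), -0.19 with probes well above background on all 4 arrays, with the replicate block and with the t-test, -0.23 without saturated spots, and -0.22 to -0.20 with 1 array left out. The 3 settings at -0.19 dropped ENO1, which had 1 flagged array. The median of the HIF targets, 0.77, was 0.67 under median centring, 0.95 in the authors' table, which held 8 of the 9, and 0.70 to 0.84 with 1 array left out. The cause of the other shifts was not tested. Median centring moved the median of all genes from 0.017 to 0.138, and with it 8401 genes were higher and 6610 lower.

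PFKM, at 0.00, was 0.07 with the processed signal, 0.14 under cyclic loess, 0.03 with flagged spots kept, 0.02 in the authors' table and -0.10 to 0.09 with 1 array left out. PGAM1 was 0.04 with the processed signal and 0.12 under cyclic loess, which also gave 0.03 for HK1 and 0.06 for PKM2. Median centring gave 0.02 for ENO2 and -0.06 for PFKFB3, and PFKFB3 was 0.00 with the mean over probes and in the authors' table and 0.00 to 0.07 with 1 array left out. HIF1A was 0.04 with the mean over probes.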

Other observations

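The pentose phosphate pathway, which branches off glycolysis after hexokinase and supplies NADPH and ribose, had 6 of 9 genes lower, 1 higher and 2 not called, with a median log2 fold change of -0.52. Of all genes tested, 32.0% were lower and 30.6% higher. The lowest was PGD, phosphogluconate dehydrogenase, which fell from 13.70 and 13.84 on the control arrays to 12.16 and 12.18 on the PAK1 shRNA arrays (-1.60, standard error 0.08, adjusted p = 9.4e-06 from limma). The highest was TKTL1, a transketolase-like gene, at 0.71 (8.07 and 8.22 against 8.76 and 8.95).

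Of 26 other genes of glycolysis and of steps linked to it, among them tissue-restricted isoforms, 22 passed the filter. Of these 7 were higher, 6 were lower and 9 were not called, with a median of -0.09, shares close to those of all genes. GPD1L, a relative of glycerol 3-phosphate dehydrogenase, was lowest, at 12.14 and 12.22 against 10.58 and 10.38 (-1.71, standard error 0.09, adjusted p = 1.2e-05 from limma). SLC2A12, a glucose transporter, was highest, at 7.57 and 7.68 against 9.67 and 9.72 (2.07, standard error 0.08, adjusted p = 3e-06 from limma).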
